A study of Mus musculus with 14 samples.

Results

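The nuclear-encoded genes of the mitochondrial respiratory chain were followed in single mouse oocytes that had or lacked maternal Kdm1a. They were found by the start of their symbols (Ndufa, Ndufb, Ndufc, Ndufs, Ndufv, Sdha to Sdhd, Uqcr, Cox4 to Cox8 and Atp5), without the 7 Ndufaf assembly factors, which gave 87 of the 24064 genes in the count table. By symbol, 38 of the 87 belong to complex I, 6 to complex II, 8 to complex III, 18 to complex IV and 17 to complex V. The symbols also brought in 4 genes that do not encode subunits, the assembly factors Sdhaf1 and Sdhaf2 and the coupling factor relatives Atp5s and Atp5sl. Ndufa4 carries a complex I name but encodes a subunit of complex IV, and is counted below under its symbol unless its role is stated.

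Electrons from NADH enter the chain at complex I and those from succinate at complex II, then pass through complex III and cytochrome c to complex IV, where oxygen is reduced. Complexes I, III and IV move protons across the inner mitochondrial membrane, and complex V, the ATP synthase, lets them flow back to make ATP. Growing and mature oocytes draw most of their ATP from mitochondrial oxidation of pyruvate, and lay down mitochondria and maternal messenger RNA that the early embryo uses.

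The study asks what maternal Kdm1a (Lsd1), a histone lysine demethylase, does in oocytes and after fertilization. RNA of single oocytes was reverse transcribed and amplified with the single-cell cDNA method of Tang and sequenced. Control oocytes were 4 wt/wt oocytes of strain C57BL/6J (wt1, wt3, wt4 and wt5) and 1 f/f oocyte with Kdm1a flox/flox on a mixed B6;129 background without Cre (C3). The 5 mutants (D1, D2, D3, D4 and D7) were Lsd1 mko/mko on the mixed B6;129 background, with the floxed gene deleted by a Cre that the Zp3 promoter drives in growing oocytes. Libraries of C3, D3, D4 and D7 came in pairs of the same oocyte name and were summed. A library written as Oo3C-DNA among the counts was taken as that titled OoC3-DNA. The Spearman correlation within the C3 pair was 0.958, and at most 0.861 with other oocytes. The labels number the libraries of a pair as separate oocytes, so that 1 f/f oocyte and 5 mutant oocytes rest on the names and on the likeness of the libraries within a pair (Spearman correlations of 0.940 to 0.979, and at most 0.908 with other oocytes). Strain therefore separates wt/wt from mutant oocytes in full, and the f/f oocyte is the 1 control that shares the mutants' background. The library titles of the wt/wt oocytes also differ in form from those of C3 and the mutant oocytes. Any difference between library series would thus coincide with strain and cannot be told apart from it. The labels do not say how many females the oocytes came from, so that every p-value measures the spread between these oocytes only.

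Total counts were 1375187, 1740242, 1892015 and 1637050 in wt1, wt3, wt4 and wt5, 6928548 in C3, and 2346547, 2016701, 3245395, 6926076 and 2135951 in D1, D2, D3, D4 and D7. Levels are CPM, counts scaled to a common total that was adjusted by TMM factors, and values in the oocytes are given in that same order throughout. On this scale 3 counts stood for 0.456 CPM in D4 and 1.83 CPM in D2, the extremes of the 10 oocytes, which covers counting error only. A count was seen for 83 of the 87 genes, and Ndufs5, Cox7a1, Cox7b2 and Cox8b had none in any oocyte. The filter on low totals kept 71 of the 87, whose lowest total over the 10 oocytes was 51 counts, and left out 16 with totals of up to 34 counts.

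Kdm1a itself stood at 38.7, 18.6, 34.8 and 12.1 CPM in the wt/wt oocytes, at 149 CPM in C3, and at 0, 1.22, 1.42, 0.456 and 4.99 CPM in the mutant oocytes. No mutant oocyte reached the level of any control, and the f/f oocyte lay above all the others. The log2 fold change between mutant and control oocytes was −5.02 (SE 0.86, adjusted p = 0.0011, edgeR). Deletion of an exon need not remove all transcript from the rest of the gene, so that the remaining counts do not measure protein.

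Of the 71 respiratory chain genes tested, 22 rose in the mutant oocytes and 0 fell at an adjusted p under 0.05 and a log2 fold change of at least 1 in size (edgeR quasi-likelihood, Benjamini-Hochberg over all 9198 genes tested). Among all genes tested, 25.9% were called, 14.7% as higher and 11.2% as lower, beside 31.0% of the chain genes as higher. Members of the chain had a median log2 fold change of 1.05, beside 0.17 over all genes tested, and 56 of the 71 fitted values were above 0, beside 54.8% of all. At an unadjusted p under 0.05 there were 27 chain genes (38.0%), of which 0 were lower, beside 39.4% of all genes, with 17.3% lower. DESeq2 called 22 chain genes higher and 0 lower, beside 17.6% and 12.9% of all genes, while limma voom called 24 higher and 4 lower (Atp5a1, Atp5o, Cox5a and Ndufs4), beside 20% and 14.5%. Scaling by library totals gave 19 higher (26.8%) and 4 lower (5.63%; Cox5a, Cox6b2, Ndufs4 and Sdha), beside 10.5% and 18.1% of all genes, and moved the median of the chain genes from 1.05 to 0.66 and that of all genes tested from 0.17 to −0.23. With every library as its own sample, 25 chain genes were called, all of them higher, beside 17.8% of all genes called higher. That fit takes the paired libraries of C3, D3, D4 and D7 as separate samples, so its p-values treat libraries of an oocyte as replicates.

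By complex, the 22 calls were distributed as follows, beside 14.7% of all genes called higher. Complex I had 8 of 31 tested genes called, with a median log2 fold change of 1.21, and complex II had 1 of 5, with a median of 0.58. Complex III had 4 of 7 with a median of 2.42, complex IV 7 of 13 with a median of 2.03, and complex V 2 of 15 with a median of 0.39. Medians kept their sign with library totals and with GC and length trends removed in complexes I, III and IV, but turned to −0.25 in complex II with the trends removed, and to −0.10 and −0.05 in complex V with library totals and with the trends removed. Without D1 and D4 they were −0.90 in complex II and −0.43 in complex V. Whether the complexes differed from each other was not tested. Fitted values ran from −2.21 for Atp5o, in the stalk of the ATP synthase, to 6.38 for Cox7c, a small subunit of complex IV, and Atp5o did not pass the test (adjusted p = 0.145).

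**Figure D1:**
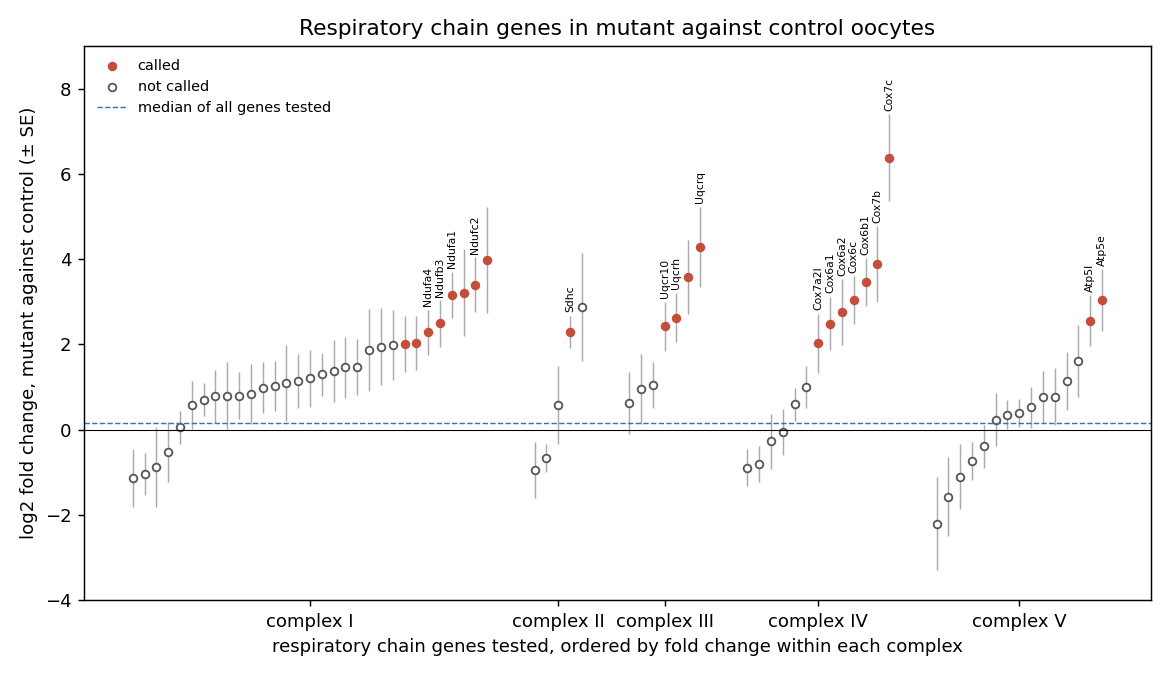
Log2 fold change of each tested respiratory chain gene between 5 mutant and 5 control oocytes, grouped by complex. Points above 0 number 27 of 31 in complex I, 3 of 5 in complex II, 7 of 7 in complex III, 9 of 13 in complex IV and 10 of 15 in complex V, with Cox7c highest at 6.38 and Atp5o lowest at −2.21.

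Every mutant oocyte lay above every control oocyte for 12 of the 71 chain genes, beside 8.09% of all genes tested, and all 12 were among the 22 called. These were Ndufa1, Ndufa6 and Ndufc2 of complex I, Sdhc of complex II, Uqcr10 and Uqcrq of complex III, Cox6a2, Cox6b1, Cox6c, Cox7b and Cox7c of complex IV, and Atp5l of complex V. With library totals the count was 9, beside 5.60% of all genes. The reverse order, with every mutant oocyte below every control oocyte, was found for 0 chain genes and likewise for 8.09% of all genes tested, with TMM scaling.

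Leaving out the f/f oocyte compares mutant oocytes of mixed background with C57BL/6J oocytes alone. It gave 22 of 73 tested chain genes higher and 0 lower, beside 31.5% of 9166 genes called, 18.8% as higher and 12.7% as lower, with a median of 1.20 for the chain genes and 0.28 for all. At an unadjusted p under 0.05 there were 35 chain genes, 7 of them lower, beside 43.6% of all genes, with 17.9% lower. DESeq2 called 24 higher and 2 lower, beside 21.0% and 14.1% of all genes, and limma voom 22 higher and 6 lower, beside 20.3% and 14.6%. With library totals 17 were higher and 10 lower (23.3% and 13.7%), beside 10.8% and 23.5% of all genes, and with GC and length trends removed 18 were higher and 8 lower, beside 15.4% and 16.2%. The comparisons share the mutant and wt/wt oocytes, and 20 genes were called higher in both. By edgeR, Ndufa3 and Cox7a2l were called with the f/f oocyte included and not without it, and Uqcrc2 (log2 fold change 1.45, adjusted p = 0.0483) and Cox8a (1.40, adjusted p = 0.0379) without it and not with it. The tools differed here, since DESeq2 also called Ndufa3 and Cox7a2l without the f/f oocyte, and limma voom called Ndufa3 without it and Cox8a with it.

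The single f/f oocyte is the control closest to the mutants in strain and floxed allele. A single oocyte has no spread of its own, so that it is set against the mutants by fitted values without a test. Of the 70 fitted values of chain genes 67 were above 0 with a median of 1.90, beside 58.0% of all genes and a median of 0.31. C3 lay below every mutant oocyte for 30 of the 71 chain genes, beside 24.4% of all genes. Among the 22 called against all controls, a selection that C3 took part in, this held for 19, beside 72.8% of all genes called higher, and the exceptions were Ndufa4, Ndufa7 and Ndufc1. With 1 f/f oocyte, genotype and oocyte cannot be told apart here.

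Placed beside the wt/wt oocytes, C3 was below every one of them for 22 chain genes, beside 23.4% of all genes tested, and above every one for 7, beside 28.4%. The 22 comprised 9 genes of complex V, 7 of complex I, 4 of complex IV and 2 of complex III. The 7 were Ndufa1, Ndufa4, Ndufa10, Ndufa11, Uqcrc2, Cox8a and Atp5b. With library totals in place of TMM scaling, 36 chain genes lay below (50.7%), beside 47.8% of all genes, and 2 above (2.82%), beside 10.5%, the TMM factor of C3 being 0.651 and those of the wt/wt oocytes 1.30 to 1.37.

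Complex I is built from catalytic core subunits, which hold the flavin and the iron-sulfur clusters, and a larger number of accessory subunits around them. Of the 26 tested accessory genes 7 rose (26.9%), beside 14.7% of all genes, with a median log2 fold change of 1.25. The count was 2 of 25 without D1 and D4, beside 5.96% of all genes, and 1 of 26 with every library as its own sample and the replicate number as a block, beside 6.44%. Ndufa1, an accessory subunit of the membrane arm encoded on chromosome X, stood at 2.21, 14.2, 11.4 and 21.5 CPM in the wt/wt oocytes, 43.5 CPM in C3, and 157, 138, 233, 174 and 139 CPM in the mutant oocytes. All mutant oocytes were far above all controls and close to each other. Its log2 fold change was 3.16 (SE 0.54, adjusted p = 0.0012), an 8.91-fold difference.

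Ndufc2, another membrane arm subunit, stood at 1.66, 3.45, 2.04 and 6.28 CPM in the wt/wt oocytes, 2.44 CPM in C3, and 39.5, 19.5, 8.90, 84.4 and 16.0 CPM in the mutant oocytes. The groups did not overlap, although the mutant oocytes themselves spread widely, with D4 highest and D3 lowest. Its log2 fold change was 3.40 (SE 0.64, adjusted p = 0.0018). Ndufb3, a membrane arm subunit too, stood at 9.40, 13.4, 13.5 and 31.0 CPM in the wt/wt oocytes, 8.44 CPM in C3, and 126, 74.9, 32.4, 165 and 25.9 CPM in the mutant oocytes. Here D7 lay between wt5 and the other wt/wt oocytes, so that the groups overlapped by that oocyte, and the log2 fold change was 2.49 (SE 0.54, adjusted p = 0.0046).

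Also called were Ndufa6, Ndufa7, Ndufc1 and Ndufa3, with log2 fold changes of 2.04, 3.21, 3.98 and 2.01. Leaving out single oocytes ended each of these 4 calls. The Ndufa6 call was lost without wt3, wt4, D1 or D4 (log2 fold change 1.83 to 1.99, adjusted p = 0.0546 to 0.0729), and that of Ndufa7 without wt1, wt3, wt4, D1 or D4 (2.53 to 3.36, adjusted p = 0.0559 to 0.100). For Ndufc1 this held for wt4, wt5, D1 or D4 (2.60 to 3.88, adjusted p = 0.0522 to 0.149), and for Ndufa3 for wt1, wt3, wt4, C3, D1, D2 or D4 (1.63 to 2.07, adjusted p = 0.0568 to 0.116). Ndufc1 was not called by DESeq2 or limma voom and Ndufa7 not by limma voom. Library totals ended the calls of Ndufa3 and Ndufa6, and removal of GC and length trends those of Ndufa3, Ndufa6 and Ndufa7. Leaving out D1 and D4 together ended the calls of Ndufa3, Ndufa6 and Ndufa7, while Ndufc1 was not tested in that setting. Ndufa7 and Ndufc1 were at or under 2.24 CPM in every control oocyte, and D1 and D4 alone were clearly higher, at 34.6 and 30.6 CPM for Ndufa7 and 15.4 and 38.0 CPM for Ndufc1. Ndufb6, an accessory subunit with the second highest level per kilobase among complex I symbols in wt/wt oocytes, stood at 11.6, 40.6, 26.2 and 52.9 CPM in them, 37.7 CPM in C3, and 91.0, 23.1, 62.3, 177 and 61.8 CPM in the mutant oocytes. The groups overlapped through D2, and the log2 fold change of 1.30 (SE 0.50) did not pass the test (adjusted p = 0.0634).

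The catalytic core was sparsely covered. Ndufs7, Ndufs8 and Ndufv1 were among the 16 genes with too few counts to be tested. Ndufs1, Ndufs3 and Ndufv2, chosen for naming after their values were seen, had log2 fold changes of 0.80, −1.13 and 0.78 that did not pass the test (adjusted p = 0.476, 0.228 and 0.378, edgeR). Ndufs3 was called lower after trends with GC content and transcript length were removed (log2 fold change −1.89, adjusted p = 0.0367). Against wt/wt alone its value was −1.38 (adjusted p = 0.124), and it was called lower there by limma voom (−1.79, adjusted p = 0.0366) and with library totals (−1.93, adjusted p = 0.0352).

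Complex II, succinate dehydrogenase, is the 1 complex of the chain encoded wholly in the nucleus. Sdhc, a membrane anchor, stood at 17.7, 15.1, 12.3 and 20.2 CPM in the wt/wt oocytes, 13.1 CPM in C3, and 77.3, 115, 40.2, 93.7 and 57.3 CPM in the mutant oocytes. Controls sat within a narrow range and each mutant oocyte was above it, and the log2 fold change was 2.29 (SE 0.38, adjusted p = 0.00092). Sdha, the flavoprotein that oxidizes succinate, stood at 231, 385, 314 and 250 CPM in the wt/wt oocytes, 233 CPM in C3, and 116, 170, 179, 146 and 283 CPM in the mutant oocytes. Mutant oocytes other than D7 were below all controls, but the log2 fold change of −0.66 (SE 0.33) did not pass the test (adjusted p = 0.150). With library totals Sdha was called lower (log2 fold change −1.12, adjusted p = 0.0369).

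The remaining complex II subunits stood lower. Sdhb, the iron-sulfur subunit, stood at 2.21, 2.59, 0 and 0.449 CPM in the wt/wt oocytes, 1.33 CPM in C3, and 2.74, 1.22, 0.712, 4.26 and 0.499 CPM in the mutant oocytes. Sdhd, the other membrane anchor, stood at 1.11, 0, 2.04, 0 and 0 CPM in the controls and at 12.1, 0, 2.14, 8.52 and 0 CPM in the mutant oocytes. D1 and D4 held nearly all of the Sdhd signal while D2 and D7 had none. Neither gene passed the test, with log2 fold changes of 0.58 (SE 0.91, adjusted p = 0.671) for Sdhb and 2.88 (SE 1.27, adjusted p = 0.104) for Sdhd.

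Complex III had its calls among the accessory subunits, where 4 of 5 tested genes rose (80%), beside 14.7% of all genes. The median log2 fold change of these 5 was 2.63. Without D1 and D4 the count was 1 of 4, beside 5.96% of all genes. With every library as its own sample and the replicate number as a block it was 2 of 5, beside 6.44%. Uqcrh, the acidic hinge protein next to cytochrome c1, stood at 18.2, 12.9, 24.5 and 87.0 CPM in the wt/wt oocytes, 14.2 CPM in C3, and 150, 184, 142, 413 and 79.8 CPM in the mutant oocytes. Apart from D7, which lay just below wt5, the mutant oocytes were above every control, and the log2 fold change was 2.63 (SE 0.58, adjusted p = 0.0047). Uqcr10, a small membrane-spanning subunit, stood at 7.74, 13.4, 4.50 and 18.4 CPM in the wt/wt oocytes, 1.55 CPM in C3, and 94.9, 34.1, 33.8, 48.7 and 30.9 CPM in the mutant oocytes. There was no overlap, with C3 lowest of all, and the log2 fold change was 2.42 (SE 0.57, adjusted p = 0.0070).

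Uqcrq, a small subunit, had 0, 3, 1 and 0 counts in the wt/wt oocytes, 1 count in C3 and 33, 5, 8, 97 and 5 counts in the mutant oocytes. In CPM the mutant oocytes were at 18.1, 3.05, 2.85, 14.8 and 2.49, all above the controls, of which the highest was 1.29. Its fitted log2 fold change of 4.29 (SE 0.95, adjusted p = 0.0049) rests on few control counts, since no control had more than 3 counts. Uqcr11 was the other call, at 3.59. Among the larger subunits, the core protein gene Uqcrc2 and the Rieske gene Uqcrfs1 had log2 fold changes of 1.05 and 0.96 that did not pass the test (adjusted p = 0.162 and 0.404), nor did Uqcrb at 0.63 (adjusted p = 0.546), and Uqcrc1 had too few counts. Once D1 and D4 had been left out together, Uqcr10 (log2 fold change 1.87, adjusted p = 0.0650) and Uqcr11 were no longer called, and Uqcrq had too few counts to be tested.

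Complex IV, cytochrome c oxidase, has catalytic subunits encoded in mitochondrial DNA and a shell of nuclear-encoded subunits, several of which exist as tissue isoforms. Cox7c, a small shell subunit, stood at 4.42, 2.59, 0.409 and 4.49 CPM in the wt/wt oocytes, 1.11 CPM in C3, and 445, 40.2, 61.2, 493 and 7.98 CPM in the mutant oocytes. No control reached the lowest mutant oocyte, D7, while D1 and D4 were far above the others. Its log2 fold change of 6.38 (SE 1.02, adjusted p = 0.00076) was the largest of the 71, and became 3.85 (adjusted p = 0.0075) without D1 and D4.

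Cox6c, a transmembrane subunit, stood at 64.1, 88.5, 94.1 and 473 CPM in the wt/wt oocytes, 305 CPM in C3, and 3099, 1363, 1554, 1290 and 1142 CPM in the mutant oocytes. The groups did not overlap, although wt5 and C3 were several times above the other controls, and the log2 fold change was 3.04 (SE 0.56, adjusted p = 0.0016). Cox7b, an X-linked subunit, stood at 5.53, 0.863, 0 and 6.73 CPM in the wt/wt oocytes, 4.66 CPM in C3, and 46.1, 20.7, 17.1, 170 and 8.48 CPM in the mutant oocytes. All mutant oocytes were above all controls, D7 by little, and the log2 fold change was 3.89 (SE 0.88, adjusted p = 0.0056).

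Ndufa4, the complex IV subunit with the complex I name, stood at 85.7, 57.0, 66.2 and 78.1 CPM in the wt/wt oocytes, 339 CPM in C3, and 346, 307, 958, 759 and 684 CPM in the mutant oocytes. C3 lay with the lower mutant oocytes rather than with wt/wt, so that the size of the difference depended on it. The log2 fold change was 2.28 (SE 0.52, adjusted p = 0.0059) against all controls, 3.08 (adjusted p = 8.9e-05) against wt/wt, and 0.87 against C3 alone. It was not called after removal of trends with GC content and transcript length. Its isoform Ndufa4l2 had no count in any control and at most 0.548 CPM in a mutant oocyte.

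In the Cox6b pair the balance of isoforms differed between the groups. Cox6b1, the isoform of most tissues, stood at 15.5, 12.5, 20.9 and 37.2 CPM in the wt/wt oocytes, 15.5 CPM in C3, and 568, 138, 155, 202 and 58.3 CPM in the mutant oocytes. Cox6b2, known as the testis isoform, stood at 89.0, 261, 215 and 153 CPM in the wt/wt oocytes, 85.2 CPM in C3, and 112, 111, 75.5, 36.4 and 127 CPM in the mutant oocytes. Cox6b1 was above all controls in each mutant oocyte, whereas the groups overlapped for Cox6b2. The log2 fold change was 3.46 (SE 0.56, adjusted p = 0.00077) for Cox6b1, and −0.80 (SE 0.42, adjusted p = 0.165) for Cox6b2, which did not pass. Against C3 alone the fitted value of Cox6b2 was 0.14, and it was called lower with library totals (−1.35, adjusted p = 0.0356) and after removal of GC and length trends (−1.68, adjusted p = 0.0126).

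Per kilobase of transcript, Cox6b2 made up 85.9%, 95.7%, 91.6% and 81.3% of the pair's summed level in the wt/wt oocytes, 85.3% in C3, and 17.2%, 45.9%, 34.0%, 15.9% and 69.7% in the mutant oocytes. The share was thus below that of every control in each mutant oocyte, with D7 nearest to the controls. This share is a ratio within an oocyte, so it does not depend on the scaling between oocytes, but it cannot say which gene of the pair moved.

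Cox6a1, the broadly used isoform of its family, stood at 22.1, 26.3, 19.6 and 231 CPM in the wt/wt oocytes, 55.1 CPM in C3, and 486, 478, 428, 416 and 175 CPM in the mutant oocytes. An oocyte stood apart in each group, wt5 being above D7 while the others did not overlap, and the log2 fold change was 2.48 (SE 0.62, adjusted p = 0.0097), or 3.72 without wt5. Cox6a2, the heart and skeletal muscle isoform, stood at 1.11, 0.863, 0 and 1.35 CPM in the wt/wt oocytes, 1.33 CPM in C3, and 8.23, 14.0, 2.85, 3.04 and 5.48 CPM in the mutant oocytes. Each mutant oocyte was above each control at a level of few counts, and the call (log2 fold change 2.75, SE 0.78, adjusted p = 0.0171) was lost without D2 (2.32, adjusted p = 0.0607) and with GC and length trends removed. In every oocyte Cox6a1 made up at least 96.0% of the family per kilobase.

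Cox7a2, the liver-type isoform, stood at 56.4, 123, 96.9 and 180 CPM in the wt/wt oocytes, 91.0 CPM in C3, and 131, 145, 156, 303 and 90.7 CPM in the mutant oocytes. These ranges overlapped, and the log2 fold change of 0.59 (SE 0.40) did not pass (adjusted p = 0.279). Cox7a2l, which joins complexes III and IV in supercomplexes, stood at 2.21, 5.61, 1.64 and 6.28 CPM in the wt/wt oocytes, 0.444 CPM in C3, and 14.3, 7.92, 6.05, 29.4 and 6.98 CPM in the mutant oocytes. Only D3 fell within the range of the controls, and the log2 fold change was 2.03 (SE 0.69, adjusted p = 0.0397). The Cox7a2l call was lost without wt1, wt4, C3, D1, D2 or D4, each left out alone, with log2 fold changes of 1.46 to 2.14 and adjusted p-values of 0.0511 to 0.140 in those fits. It was also lost with library totals, with GC and length trends removed, with 1 library per oocyte and without D1 and D4 together. Cox7a1, the muscle isoform, had no count, and Cox7a2 made up 94.0% to 99.7% of the family per kilobase.

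Cox8a, the broadly used isoform of the smallest subunit, stood at 32.6, 176, 90.8 and 227 CPM in the wt/wt oocytes, 328 CPM in C3, and 540, 391, 317, 239 and 222 CPM in the mutant oocytes. C3 was within the mutant range and wt5 above D7, and the log2 fold change of 1.00 (SE 0.49) did not pass (adjusted p = 0.139), although it did against wt/wt. After removal of GC and length trends the fitted value of Cox8a was −0.11. Cox4i1, a regulatory subunit, stood at 13.3, 6.90, 5.32 and 8.97 CPM in the wt/wt oocytes, 2.00 CPM in C3, and 6.03, 6.70, 1.07, 11.6 and 3.99 CPM in the mutant oocytes. No difference was detectable for Cox4i1, at a log2 fold change of −0.27 (SE 0.64, adjusted p = 0.781). Its hypoxia-linked isoform Cox4i2 was too low to test against all controls, with 6.58 CPM in D1 as its highest value, and did not pass against wt/wt (log2 fold change 2.16, adjusted p = 0.192), and Cox8c had counts in D1, D3 and D4 only.

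**Figure D2:**
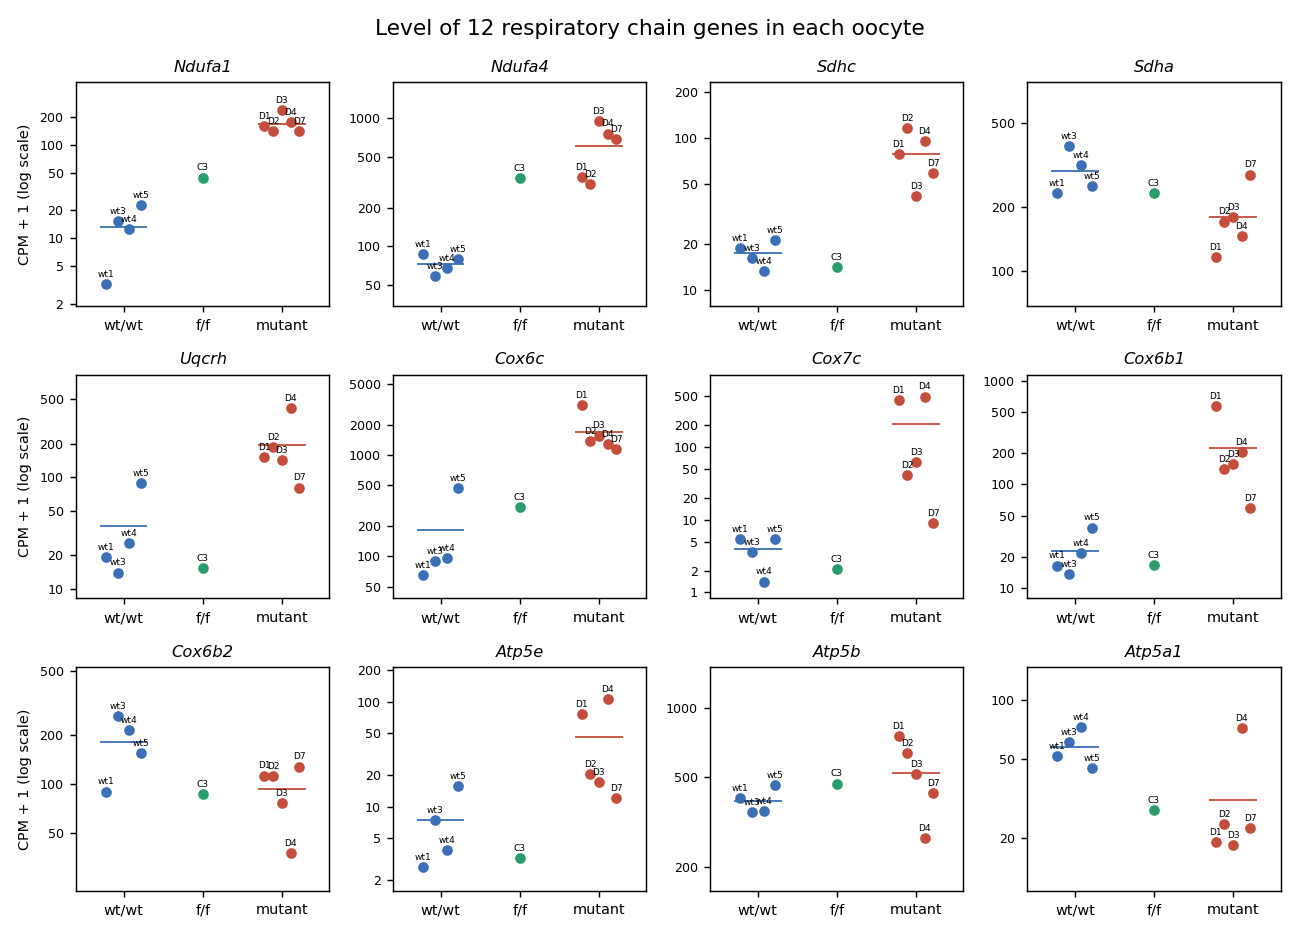
CPM plus 1 on a log axis in each of 4 wt/wt, 1 f/f and 5 mutant oocytes for 12 respiratory chain genes, with lines at the means of wt/wt and of mutant oocytes. Ndufa1, Sdhc, Cox6c, Cox7c and Cox6b1 show every mutant oocyte above every control, while Sdha, Cox6b2, Atp5b and Atp5a1 overlap between the groups.

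Complex V had 2 of 15 tested genes called (13.3%), beside 14.7% of all genes called higher. In its catalytic F1 head, Atp5b, the beta subunit that carries the catalytic sites, stood at 402, 348, 351 and 460 CPM in the wt/wt oocytes, 466 CPM in C3, and 755, 637, 512, 267 and 423 CPM in the mutant oocytes. D4 was below and D1, D2 and D3 were above all controls, and the log2 fold change of 0.35 (SE 0.33) did not pass (adjusted p = 0.455). Its sign turned with library totals (−0.11) and after removal of GC and length trends (−0.04). Atp5e, the small epsilon subunit of the same head, stood at 1.66, 6.47, 2.86 and 14.8 CPM in the wt/wt oocytes, 2.22 CPM in C3, and 75.1, 19.5, 16.0, 106 and 11.0 CPM in the mutant oocytes. Apart from D7 the mutant oocytes were above every control, and the log2 fold change was 3.03 (SE 0.73, adjusted p = 0.0076), falling to 1.48 (adjusted p = 0.167) without D1 and D4.

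Atp5l, the g subunit in the membrane domain, stood at 42.6, 47.9, 60.9 and 97.8 CPM in the wt/wt oocytes, 23.3 CPM in C3, and 325, 115, 134, 910 and 115 CPM in the mutant oocytes. The groups did not overlap and D4 was the highest by far, and the log2 fold change was 2.56 (SE 0.59, adjusted p = 0.0062), or 1.67 without D4 and 1.17 (adjusted p = 0.0855) without D1 and D4. Its counts are uncertain, because 68.5% of the 49-base stretches of its transcript also occur in genes elsewhere in the genome, the only one of the 87 above 50%. In all, 36 of the 87 share some stretch, and 32 overlap a gene on the other strand, while the counts did not use strand. A gene on the same strand overlaps 12 of the 87. For Atp5o and Sdhaf1, 76.3% and 69.0% of stretches also occur in genes that overlap them. The entries that overlap Atp5o include another with its symbol.

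The c-ring, which turns as protons pass, is made from 1 protein encoded by Atp5g1, Atp5g2 and Atp5g3. Atp5g1 stood at 21.0, 10.8, 3.27 and 17.0 CPM in the wt/wt oocytes, 0.222 CPM in C3, and 7.68, 3.05, 0.712, 5.63 and 0 CPM in the mutant oocytes. C3 and D7 had almost none of it, and its share of the family per kilobase was 21.0%, 30.6%, 8.62% and 17.9% in the wt/wt oocytes, 0.398% in C3 and at most 7.62% in a mutant oocyte. The log2 fold changes were −1.57 for Atp5g1, 0.53 for Atp5g2 and 0.78 for Atp5g3, none of which passed (adjusted p = 0.221, 0.438 and 0.406). Against C3 alone Atp5g1 had the opposite sign, at 3.75. Against all controls no c-ring gene was called by DESeq2 or limma voom, and 0 of the 3 had an unadjusted p under 0.05 in edgeR. Against wt/wt alone the value of Atp5g1 was −1.89 (unadjusted p = 0.0308, adjusted p = 0.0794), and it was called lower there by DESeq2 (adjusted p = 0.0441), by limma voom (adjusted p = 0.0481) and with library totals (−2.52, adjusted p = 0.0169). The 4 tested stalk genes were not called against all controls by edgeR, with 0 at an unadjusted p under 0.05, or by DESeq2, and limma voom called 1 of them lower, Atp5o.

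Levels were then compared between genes as CPM per kilobase of transcript, counting at most the last 3 kb. In wt/wt oocytes the highest levels were those of Cox6b2 (307 ± 128 CPM per kilobase, SD, n = 4), Cox6c (244 ± 266), Cox8a (239 ± 157) and Atp5b (204 ± 27.5), whose differences lie within their spread. Cox6a1 (131 ± 183), Ndufa4 (118 ± 20.8), Atp5l (115 ± 45.8) and Sdha (102 ± 24.1) were among the 10 highest too. In mutant oocytes the order began with Cox6c (2290 ± 1086 CPM per kilobase, SD, n = 5), Ndufa4 (1001 ± 457), Cox6a1 (695 ± 223) and Cox8a (621 ± 236). Ndufa1 stood at rank 18 in wt/wt and rank 6 in mutant oocytes, and Cox7c at rank 48 and rank 9. Cox6b2 went the other way, from rank 1 to rank 13 (158 ± 62.5), and Sdha from rank 10 to rank 20 (61.6 ± 21.9).

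Summed over the 87 genes, the level was 1662, 2364, 2055 and 3425 CPM in the wt/wt oocytes, 2624 CPM in C3, and 9081, 5339, 5922, 8178 and 4360 CPM in the mutant oocytes. On this scale each mutant oocyte had a higher sum than each control, and C3 lay among the wt/wt oocytes. As shares of the library totals the sums were 0.219%, 0.315%, 0.266% and 0.466% in the wt/wt oocytes, 0.171% in C3, and 0.706%, 0.435%, 0.512%, 0.776% and 0.409% in the mutant oocytes. There wt5 lay above D2 and D7, and C3 below every wt/wt oocyte. With TMM scaling complex IV made the largest part of the sum on average, with a mean of 855 ± 452 CPM in wt/wt (SD, n = 4) and 3273 ± 1350 CPM in mutant oocytes (SD, n = 5), although in wt1 complex V (692 CPM) was above complex IV (370 CPM). Complex V stood at 673 ± 107 and 1085 ± 401 CPM, complex I at 434 ± 182 and 1547 ± 480 CPM, complex III at 86.8 ± 56.7 and 404 ± 219 CPM, and complex II at 328 ± 68.0 and 268 ± 52.0 CPM. Cox6c alone made up 3.86%, 3.74%, 4.58% and 13.8% of the sum in the wt/wt oocytes, 11.6% in C3, and 34.1%, 25.5%, 26.2%, 15.8% and 26.2% in the mutant oocytes. The gene with the highest CPM was Atp5b in wt1, wt4 and C3, Sdha in wt3, and Cox6c in wt5 and every mutant oocyte.

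Mutant oocytes differed widely among themselves. Over the tested chain genes, the median log2 difference from the mean of the controls was 1.57 in D1, 0.71 in D2, 0.43 in D3, 2.03 in D4 and 0.11 in D7. Of the 22 called genes, D4 had the highest mutant value for 10 and D1 for 8, while D7 had the lowest for 13. Among wt/wt oocytes wt5 stood highest for 19 of the 22, and its median log2 difference was 0.75, above that of D2, D3 and D7. When D1 and D4 were left out together, a setting chosen after seeing the data, 9 of 68 chain genes were called, all of them higher, beside 5.96% of all genes called higher and 5.02% lower, and the median was 0.43, while the calls over all genes went from 2384 to 947, with fewer oocytes in the test. The 9 were Ndufa1, Ndufc2, Ndufa4, Sdhc, Uqcrh, Cox7c, Cox6b1, Cox6c and Cox6a2.

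**Figure D3:**
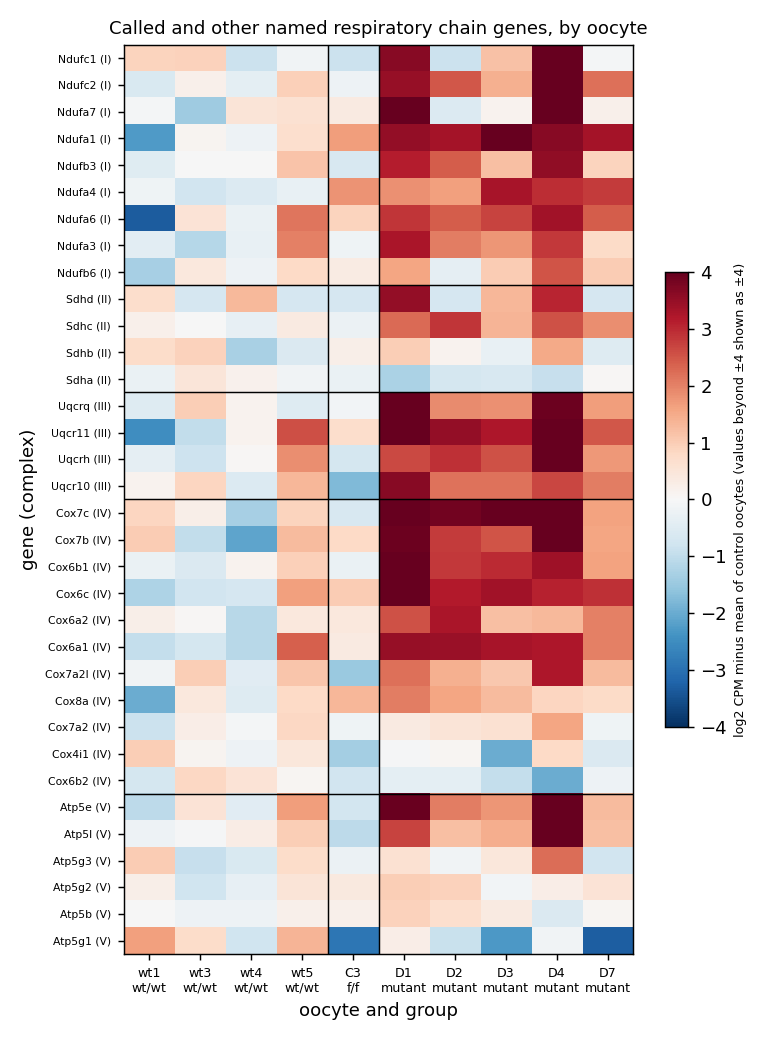
Log2 level of the called and the other rule-named respiratory chain genes in each oocyte relative to the mean of the control oocytes, in columns by oocyte and grouped by complex (red higher, blue lower, colour capped at 4 either way). D1 and D4 are the columns with the highest values, and wt5 stands out among the wt/wt oocytes. Over all 71 tested genes their medians were 1.57, 2.03 and 0.75.

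Libraries also differed in ways that run across the groups. Zbed3 was the gene with the most counts in C3 and every mutant oocyte, at 8.09% of the total in C3 and 8.44%, 6.02%, 7.57%, 8.89% and 7.67% in the mutant oocytes, whereas the top gene of the wt/wt oocytes, Spin1, Bcl2l10 or Gdf9, held 1.42% to 2.51%. The 16 oocyte markers summed to 21037, 21297, 22412 and 36188 CPM in the wt/wt oocytes, 62534 CPM in C3, and 127286, 91820, 70069, 62619 and 70719 CPM in the mutant oocytes, with Gdf9 or Oosp1 on top. Of these 16 markers 10 were called higher in mutant oocytes (62.5%) and 0 lower (edgeR; 0 lower at an unadjusted p under 0.05, with DESeq2 and with limma voom), beside 14.7% and 11.2% of all genes. With GC and length trends removed 6 were called higher, beside 11.5% of all genes, and without D1 and D4 the count was 7, beside 5.96%. Figla was at 0 in wt1, wt3 and wt5, and each of the other 15 markers had a count in every oocyte.

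Of the 16 cumulus and granulosa cell markers, 3 were tested, with a median log2 fold change of −0.34, and 1 was called higher, Cyp19a1 (log2 fold change 1.48, adjusted p = 0.026, or 0.0618 without wt3 and 0.0684 without D1 and D4). The others were Nr5a2 (−1.60, adjusted p = 0.0916), which was called lower against wt/wt (−1.88, adjusted p = 0.0297), and Kitl (−0.34, adjusted p = 0.725). With library totals 0 of the 3 were called higher and 1 lower by edgeR, while DESeq2 and limma voom, with their own scaling, each called 1 higher and limma voom 1 lower. Has2 and Gja1 were too low to test, at up to 6.04 and 6.28 CPM in wt/wt oocytes, 0 in C3 and at most 0.609 and 0.304 CPM in a mutant oocyte. All 16 markers together summed to 80.7, 42.3, 56.8 and 26.9 CPM in the wt/wt oocytes, 71.3 CPM in C3, and 93.8, 85.9, 156, 120 and 114 CPM in the mutant oocytes, mostly Cyp19a1, with Nr5a2 on top in wt5. Foxl2, Fshr, Amh, Inha, Inhba, Ptx3 and Tnfaip6 were at 0 in every oocyte, Star was at up to 2.44 CPM (D2), and Amhr2, Cyp11a1 and Ptgs2 had counts in 1 oocyte each (wt4, D4 and D7). All 5 blood markers were at 0 in every oocyte. The part of oocyte marker levels, of Zbed3, of strain and of library series in the values of the chain genes was not tested.

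Many of the chain genes are short, with a median transcript length of 875 bases beside 2539 for all genes matched to the annotation. Of the 40 tested chain genes with transcripts of up to 1000 bases 17 were called, all of them higher (42.5%), with a median log2 fold change of 1.43. Among all 507 tested genes that short, 38.3% were called and 32.5% were called higher, with a median of 0.82. Of the 31 longer chain genes 5 rose (16.1%), beside 13.7% of all longer genes. Spearman's rho between transcript length and log2 fold change was −0.34 across the 71 chain genes and −0.18 across 9140 genes, and for GC content it was −0.02 and 0.20, where genes are not independent replicates. With both trends removed, 16 chain genes were called higher and 5 lower (Atp5k, Atp5o, Cox5a, Cox6b2 and Ndufs3), beside 11.5% and 14.0% of all genes, with a median of 0.53 beside −0.06 for all genes.

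Genes that work with the chain were read in the same fit, where 14.7% of all genes were called higher and 11.2% lower. Assembly factors, which build the complexes, had 46 of 49 listed symbols in the table and 25 tested, of which 6 rose (24%) and 1 fell (4.00%), with a median log2 fold change of 0.77. With library totals 4 rose and 2 fell with a median of 0.38, beside 10.5% and 18.1% of all genes. With GC and length trends removed 5 rose and 1 fell with a median of 0.24, beside 11.5% and 14% of all genes. Without D1 and D4 there were 2 that rose and 1 that fell with a median of 0.33, beside 5.96% and 5.02%. Cox14, needed for translation and assembly of the catalytic Cox1 protein, stood at 2.76, 14.2, 7.36 and 20.2 CPM in the wt/wt oocytes, 7.77 CPM in C3, and 229, 141, 83.3, 108 and 62.3 CPM in the mutant oocytes. The groups were wide apart (log2 fold change 3.57, SE 0.52, adjusted p = 0.00055). Cox10, which makes heme for complex IV, rose by 2.14 log2 units (SE 0.50, adjusted p = 0.0064), and Ndufaf4, a complex I assembly factor, fell by 1.27 log2 units (SE 0.45, adjusted p = 0.0479), a call lost without wt1, wt3, wt4, D1, D2, D3 or D7, each left out alone (adjusted p = 0.0665, 0.131, 0.121, 0.0588, 0.103, 0.0968 and 0.0950). Sdhaf1 and Sdhaf2 are counted both here and among the 87.

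A list of 16 genes held those of cytochrome c, Cyc1, carriers of adenine nucleotides and phosphate, the Vdac channels, electron transfer flavoproteins (Etfa, Etfb and Etfdh), Atpif1, Usmg5 and Ucp2. It gave 14 tested genes, of which 3 rose (21.4%) and 1 fell (7.14%), with a median of 0.34. The median was −0.06 with library totals, −0.29 with limma voom, −0.19 with GC and length trends removed and −0.66 without D1 and D4. Usmg5, a small protein attached to the ATP synthase, stood at 10.5, 5.61, 2.86 and 15.7 CPM in the wt/wt oocytes, 8.44 CPM in C3, and 80.1, 34.1, 60.2, 159 and 20.4 CPM in the mutant oocytes. All mutant oocytes were above all controls (log2 fold change 3.04, SE 0.57, adjusted p = 0.0019). The adenine nucleotide carriers Slc25a5 and Slc25a31 rose by 1.27 log2 units (SE 0.35, adjusted p = 0.0147) and 1.74 (SE 0.50, adjusted p = 0.0185), and the phosphate carrier Slc25a3 fell by 1.76 (SE 0.48, adjusted p = 0.0154). The calls of Slc25a5 and Slc25a31 were lost with library totals (0.82 and 1.30, adjusted p = 0.139 and 0.0631) and without D1 and D4 (0.93 and 1.22, adjusted p = 0.0920 and 0.122), that of Slc25a5 also with GC and length trends removed (0.77), that of Slc25a31 without D4 (1.29, adjusted p = 0.0555) and that of Slc25a3 without wt1 (−1.44, adjusted p = 0.0512). Cycs, the somatic cytochrome c, and Cyc1 did not pass, with log2 fold changes of −0.20 (adjusted p = 0.771) and −1.10 (adjusted p = 0.350).

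Regulators of mitochondrial biogenesis, a list of 19 with 18 in the table and 10 tested, had a median of −0.04, with 0 higher and 1 lower (10%; limma voom called 2 lower). The median was −0.54 with library totals, −0.42 with GC and length trends removed and −0.49 without D1 and D4. No regulator was called higher by DESeq2 or limma voom, or had an unadjusted p under 0.05 in that direction. Tfb2m, a transcription factor of mitochondrial DNA, stood at 46.4, 54.4, 57.2 and 51.1 CPM in the wt/wt oocytes, 35.7 CPM in C3, and 8.23, 9.75, 15.7, 16.4 and 8.97 CPM in the mutant oocytes. Each mutant oocyte was below each control (log2 fold change −2.03, SE 0.37, adjusted p = 0.0016). The coactivator Ppargc1a had no count in any oocyte.

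Tricarboxylic acid cycle enzymes, which feed NADH and succinate to the chain, had 15 of 18 tested, with 1 higher (6.67%) and 2 lower (13.3%) and a median of −0.31. The median was −0.60 with library totals, −0.53 with GC and length trends removed and −0.38 without D1 and D4. Its sign turned with the replicate number as a block (0.09) and against C3 alone (0.70). Citrate synthase, Cs, rose by 1.22 log2 units (SE 0.39, adjusted p = 0.0298). Its call was lost with library totals (0.93, adjusted p = 0.0507), with GC and length trends removed (0.96, adjusted p = 0.0712), without D1 and D4 (1.35, adjusted p = 0.0600), and without wt1, wt3, wt5 or D2, each left out alone (adjusted p = 0.0743, 0.0694, 0.0515 and 0.0619), and against C3 alone the value was 0.32. The succinate-CoA ligase gene Suclg2 fell by 1.58 (SE 0.41, adjusted p = 0.0119) and the pyruvate dehydrogenase gene Pdhb by 1.29 (SE 0.40, adjusted p = 0.0269). Neither was called without D1 and D4 (−1.25 and −0.98, adjusted p = 0.0817 and 0.151) or with the replicate number as a block (adjusted p = 0.0805 and 0.160). The Pdhb call was also lost without wt1, wt4, D1, D2 or D4, each left out alone (adjusted p = 0.0542, 0.0636, 0.0684, 0.0533 and 0.0538), and against C3 alone its value was 0.0319. The table held 0 of 26 symbols of mitochondrially encoded genes, so the subunits made inside the organelle were not measured.

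Over the 10 oocytes, the genes whose log2 CPM was most like the mean of the chain genes were Lpin2 (Pearson's r = 0.984), Gm1821 (0.982), Padi6 (0.981), Tmem256 (0.977) and Fbxw26 (0.976), of 9127 genes compared. The oocytes fall into control and mutant groups and share depth within libraries, so these values are descriptions without a test.

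Promoters were read from RefSeq on build GRCm38.p6, from 250 bases before to 50 bases after the start of each gene, and 72 of the 87 genes were matched. Letters of motifs known for regulators of chain genes were searched on both strands. The NRF1 letters GCGCANGCG were in the windows of 20 of the 72 (27.8%), beside 7.03% of 27025 genes and 16.3% of the tested genes. They were in 4 of the 18 matched genes that were called and 13 of the 41 that were tested and not called. The YY1 letters AAGATGGC were in 11 (15.3%), beside 3.19% of all genes and 5.45% of the tested genes, and in 2 of the 18 and 8 of the 41. The ETS letters CCGGAAGT were in 5 (6.94%), above the 4.31% of all genes but below the 9.57% of the tested genes. They were in 2 of the 18 and 3 of the 41. The ESRRA letters TCAAGGTCA were in 2 (2.78%), beside 0.466% and 0.256%, and in 0 of the 18 and 2 of the 41. A match is a description of letters and not a site of binding.

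Below are the 250 bases before the start of 3 of these genes, read 5′ to 3′ on the strand of the gene, because they place NRF1 or ETS letters before genes that rose (Cox6a1 and Uqcrh) and before one that did not (Sdha). Capitals mark the matches, on either strand. They lie on GRCm38.p6 at chr5:115348959-115349208 (minus strand) for Cox6a1, where overlapping matches on the strands form 1 run of capitals, at chr4:116075071-116075320 (minus strand) for Uqcrh, and at chr13:74350241-74350490 (minus strand) for Sdha.
Cox6a1: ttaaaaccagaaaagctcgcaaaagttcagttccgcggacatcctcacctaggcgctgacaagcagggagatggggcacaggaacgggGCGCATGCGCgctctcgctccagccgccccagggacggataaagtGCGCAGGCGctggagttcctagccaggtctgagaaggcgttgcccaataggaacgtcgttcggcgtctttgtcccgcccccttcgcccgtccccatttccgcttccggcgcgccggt
Uqcrh: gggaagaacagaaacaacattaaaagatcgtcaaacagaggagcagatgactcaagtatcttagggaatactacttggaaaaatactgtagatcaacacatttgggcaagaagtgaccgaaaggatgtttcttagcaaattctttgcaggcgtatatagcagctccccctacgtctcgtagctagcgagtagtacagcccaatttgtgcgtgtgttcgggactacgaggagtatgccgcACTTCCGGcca
Sdha: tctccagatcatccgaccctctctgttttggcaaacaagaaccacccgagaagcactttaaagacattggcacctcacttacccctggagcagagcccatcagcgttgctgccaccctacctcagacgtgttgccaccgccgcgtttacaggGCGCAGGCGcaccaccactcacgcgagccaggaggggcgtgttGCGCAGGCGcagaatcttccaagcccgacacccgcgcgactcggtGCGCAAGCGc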

How the data were processed

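The counts per gene were deposited by the authors, who per the labels aligned reads to mm10 with TopHat2 2.0.6, counted them with HTSeq 0.5.3p9 and did not normalize them in the table. Counts of libraries with the same oocyte name were added, since Spearman correlations were 0.940 to 0.979 within a name and at most 0.908 with other oocytes. Of 15432 genes with a count, the 9198 above the lowest 40% of totals were tested with edgeR 4.0.16 (TMM, quasi-likelihood, genotype alone, R 4.3.3), with Benjamini-Hochberg adjustment over all of them. DESeq2 1.42.0 and limma 3.58.1 served as alternatives, beside other scalings, filters, single libraries and left-out oocytes, and the fits were tested on simulated counts. SE is the log2 fold change divided by the root of its F value, and the common coefficient of variation was 0.609. Lengths, GC content and coordinates came from GENCODE on GRCm38, which is mm10, and matched 98.5% of genes by symbol.

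Named genes were, in each complex, up to 3 called higher and 3 called lower with the smallest p, the pair with the highest CPM per kilobase in wt/wt oocytes, the isoform families and all Sdh genes, with Kdm1a. Members and lists were chosen with earlier results of these data known. Genes named outside this rule were chosen after their values were seen.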

Additional observations from a re-analysis of the deposited data

Results flagged for a closer look

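Cox6a1 in wt5 stood at 231 CPM, far from the nearest other wt/wt oocyte, wt3, at 26.3 CPM. On the scale of log2 of CPM plus 1 this gap was 0.884 of the range of the 4 wt/wt oocytes.

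Cox6a1 in D7 stood at 175 CPM, far below the nearest other mutant oocyte, D4, at 416 CPM, with a gap of 0.847 of the range of the 5 mutant oocytes. These were 2 values among 62 groups examined, and chance alone marks about 1 in 20 groups. Their sources were not tested.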

How the results depend on the processing

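Of the 22 chain genes called higher, 16 were called with each oocyte left out in turn. In all 23 settings other than the f/f oocyte alone, 6 were called: Ndufa1, Sdhc, Uqcrh, Cox7c, Cox6b1 and Cox6c. The settings are not independent checks, and include the main fit without its fold change bound, which every called gene passes. A gene that was not tested in a setting counts there as not called. With each oocyte left out in turn, the members called numbered 17 to 25 against control and 16 to 27 against wt/wt. The median log2 fold change of members ran from 0.75 to 1.27 against control and from 0.85 to 1.34 against wt/wt. The counts of 16 and 6 and these ranges were not set beside the calls and medians of all genes in the same fits. They therefore describe the members alone and not their difference from all genes.

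Libraries of the same oocyte name also entered as separate samples in the fit with the replicate number as a block. There 966 genes and 11 members were called, 10 of them higher. The same replicate numbers did not pair libraries, with correlations of −0.090 to 0.098 in 3 pairs. With D1 and D4 left out together, 947 genes and 9 members were called. Against wt/wt the median of members was then 0.40. There 11 of 66 members were called higher (16.7%) and 5 lower (7.58%), beside 14.1% and 10.9% of all genes. With the f/f oocyte alone as control, its spread being assumed from the mutant oocytes so that the p-values do not measure it, 3 genes and 0 members were called and the median of members was 1.90. With library totals, 36 members had the f/f oocyte below every wt/wt oocyte. Fewer oocytes enter the tests without D1 and D4 and against the f/f oocyte, and for the other changes the cause was not tested.

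Signs turned for genes that had not passed the test. Against the f/f oocyte alone the log2 fold change was 0.14 for Cox6b2, 1.57 for Cox4i1 and 3.75 for Atp5g1. With library totals that of Atp5b was −0.11. With GC content and length trends removed it was −0.0376 for Atp5b, −0.17 for Cox7a2, −0.11 for Cox8a, −0.69 for Atp5g2, −0.0470 for Atp5g3 and −0.25 for Sdhb. Without D1 and D4 it was −0.27 for Atp5g3. Leaving out each oocyte in turn gave −0.70 to 0.0476 for Cox4i1 and −0.0494 to 1.11 for Atp5g3.

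Depth limits the low genes most: 16 of the 87 had too few counts to be tested, and at 3 counts an oocyte shows between 0.456 and 1.83 CPM. Oocytes per group numbered 4, 1 and 5, and strain and the form of library titles both coincide with wt/wt. Amplification from a single oocyte adds spread that counts alone do not show.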
